A study of Mus musculus with 4 samples.

Results

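The genes described here encode the machinery that copies DNA in S phase: 47 genes for origin licensing, the replicative helicase, polymerases, the sliding clamp, nucleotide supply, chromatin copying and entry into S phase. They were chosen by symbol, and all 47 were found once in each of the deposited tables, among 22554 genes shared by both. The list was drawn up with earlier results of these data known, so its shares and medians below are a description and no test. The libraries come from RAW264.7, a mouse macrophage line, as 2 mock libraries of RAW264.7 cells alone and 2 libraries of RAW264.7 cells cocultured with CT26, a mouse colon carcinoma line. All 4 libraries share the same parent line, and no genetic change, agent or time is given for either group. How RAW264.7 and CT26 cells were separated before RNA extraction, and whether replicates came from separate cultures, is not given in the sources used here. Therefore p-values cover the spread among these 4 libraries alone, and that spread may be technical.

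Before a cell divides, the origin recognition complex, Cdc6 and Cdt1 load rings of the MCM proteins onto DNA in G1. Cdc45 and the GINS complex then turn these rings into active helicases, and polymerases alpha, delta and epsilon copy the strands with the clamp PCNA and its loader. E2F transcription factors switch many of these genes on at the border of G1 and S, so their transcripts mark cycling cells. RAW264.7 is a transformed line that divides in culture, unlike most resting tissue macrophages.

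Values are in FPKM, which count fragments per kilobase of gene and per library total. Mock 1 and coculture 1 form pair 1 and stand in 1 deposited table, and mock 2 and coculture 2 form pair 2 and stand in the other. Statements below on whether the groups overlap compare values across these tables, which were normalized separately. A difference is the coculture value minus the mock value of log2(FPKM + 1), which understates the change of low genes. It was tested in limma with the pair as a block, over the 10202 genes that reached 1 FPKM in 2 or more libraries. The depth behind the FPKM, estimated from the smallest steps in the values, was 12200000 to 16200000 reads per library. The 47 genes had an estimated 348 to 20167 reads each, which gives a counting error of 0.0151 to 0.0933 on the log2 scale for the difference in a pair. These errors cover counting only. Macrophage markers summed to 10090 and 6509 FPKM in mock 1 and 2 and to 10591 and 13607 FPKM in coculture 1 and 2, and all 10 exceeded 1 FPKM. Lyz2, the lysozyme gene, made up much of this sum, and the part of such shifts in the results below was not tested. Of 12 epithelial markers, 6 (Epcam, Krt18, Krt20, Cldn3, Cldn4 and Cdx2) were listed at 0 in every library, and none exceeded 0.0683 FPKM. The epithelial sum was 0.143 and 0 FPKM for the mock libraries, 0.205 and 0.045 FPKM for the cocultures. Of 12 mesenchymal markers, which CT26 cells could carry, Tagln alone reached 1 FPKM, and the sum was 3.01 and 1.91 FPKM for the mock libraries, 2.69 and 2.15 FPKM for the cocultures. Col3a1 was listed at 0 throughout.

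DNA replication genes lay slightly lower in the cocultured macrophages, and no single gene passed the test. In bulk RNA, fewer cells in S phase and less of each transcript per cell cannot be told apart. All 47 reached at least 7.92 FPKM in every library, so all were tested and none entered through a filter. None was called higher or lower by limma at an adjusted p under 0.05, where 0.127% of all genes tested were called higher and 0% lower. Their limma adjusted p ran from 0.238 to 0.978. With no adjustment, 11 were lower (23.4%) and 0 higher with p under 0.05, where among all genes tested 9.45% were lower and 5.26% higher. The 11 were Cdt1, Mcm2, Mcm5, Mcm6, Gins3, Pole, Rpa1, Rpa2, Uhrf1, Chaf1b and Dtl. Their number was 0 without the pair block, where 2.37% of all genes were lower with such a p. It was 5 (10.6%) after median centring and also 5 without a trended prior, beside 6.91% and 9.53% of all genes. After rescaling to a common total it was 20 (42.6%), beside 12.9%. It was 0 without mock 1, mock 2 or coculture 1, beside 1.41%, 0.343% and 1.25% of all genes, and 3 (6.38%) without coculture 2, beside 2.95%.

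Of the 47 genes, 35 (74.5%) were lower in both pairs, 2 were higher in both and 10 had opposite signs. Taken by pair, 42 were lower in pair 1, beside 62.5% of all genes tested, and 38 in pair 2, beside 57.9%. Among all genes tested, 42.2% were lower in both pairs and 21.5% higher in both. Among the 6164 tested genes whose mean level lay in the same range as that of the 47, from 10.3 FPKM (Orc1) to 239 FPKM (Pcna), 41.2% were lower in both. The median difference of the 47 genes was -0.26, or -0.29 in pair 1 and -0.18 in pair 2, against -0.07, -0.09 and -0.06 over all genes tested. The number lower in both pairs was 40 after rescaling to a common total, 35 after median centring and 34 after quantile normalization, where the shares of all genes were 49.9%, 32.2% and 36.5%. Without mock 1 the median was -0.12, beside -0.09 over all genes, and without coculture 2 it was -0.17, beside -0.10, in fits that cannot use the block and so compare values across the tables. None of the 47 was at least 2-fold lower in both pairs, a pattern of 0.353% of all genes.

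The summed FPKM of the 47 genes was 2897 in mock 1 and 2316 in coculture 1, a difference of -20.1%. In pair 2 it was 2271 in mock and 2030 in coculture, a difference of -10.6%. This sum is 0.683% and 0.527% of all FPKM in mock 1 and coculture 1, and 0.591% and 0.510% in mock 2 and coculture 2. In both pairs the sum and the share were lower in coculture.

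**Figure D1:**
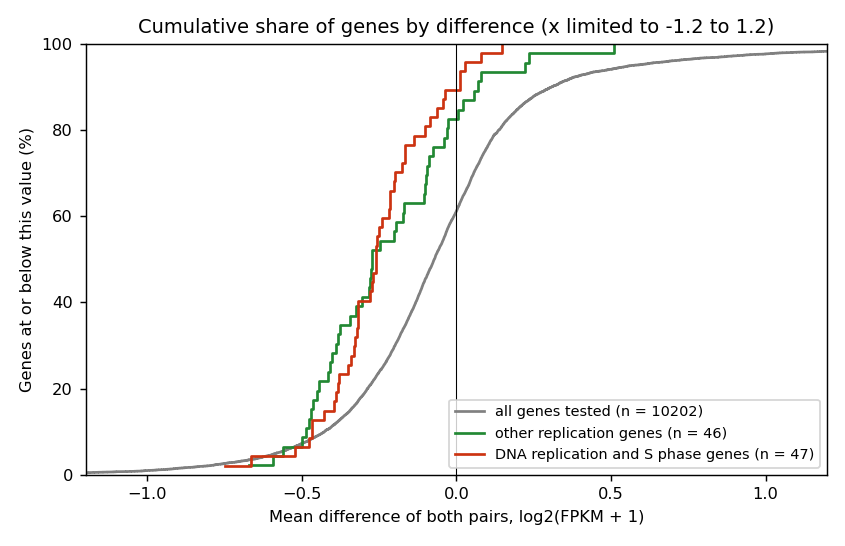
The x axis is the mean difference of both pairs on the log2(FPKM + 1) scale and the y axis the percentage of genes at or below it, for the 47 replication genes, 46 other replication genes and all 10202 genes tested. Both replication curves lie left of the curve for all genes over most of the range, with medians of -0.26 and -0.27 against -0.07.

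Expression order was stable. Pcna was the highest of the 47 in every library, with 304 and 205 FPKM in the mock libraries and 247 and 200.5 FPKM in the cocultures. Orc1 was the lowest in both mock libraries, Gins3 in coculture 1 and Tyms in coculture 2. The rank correlation of the 47 levels between libraries was 0.934 to 0.97, over genes that share the library totals and gene lengths. The size of the difference was less alike: over the 47 genes, the differences in pair 1 and pair 2 had Spearman's rho of 0.15 and Pearson's r of 0.18, given as a description.

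**Figure D2:**
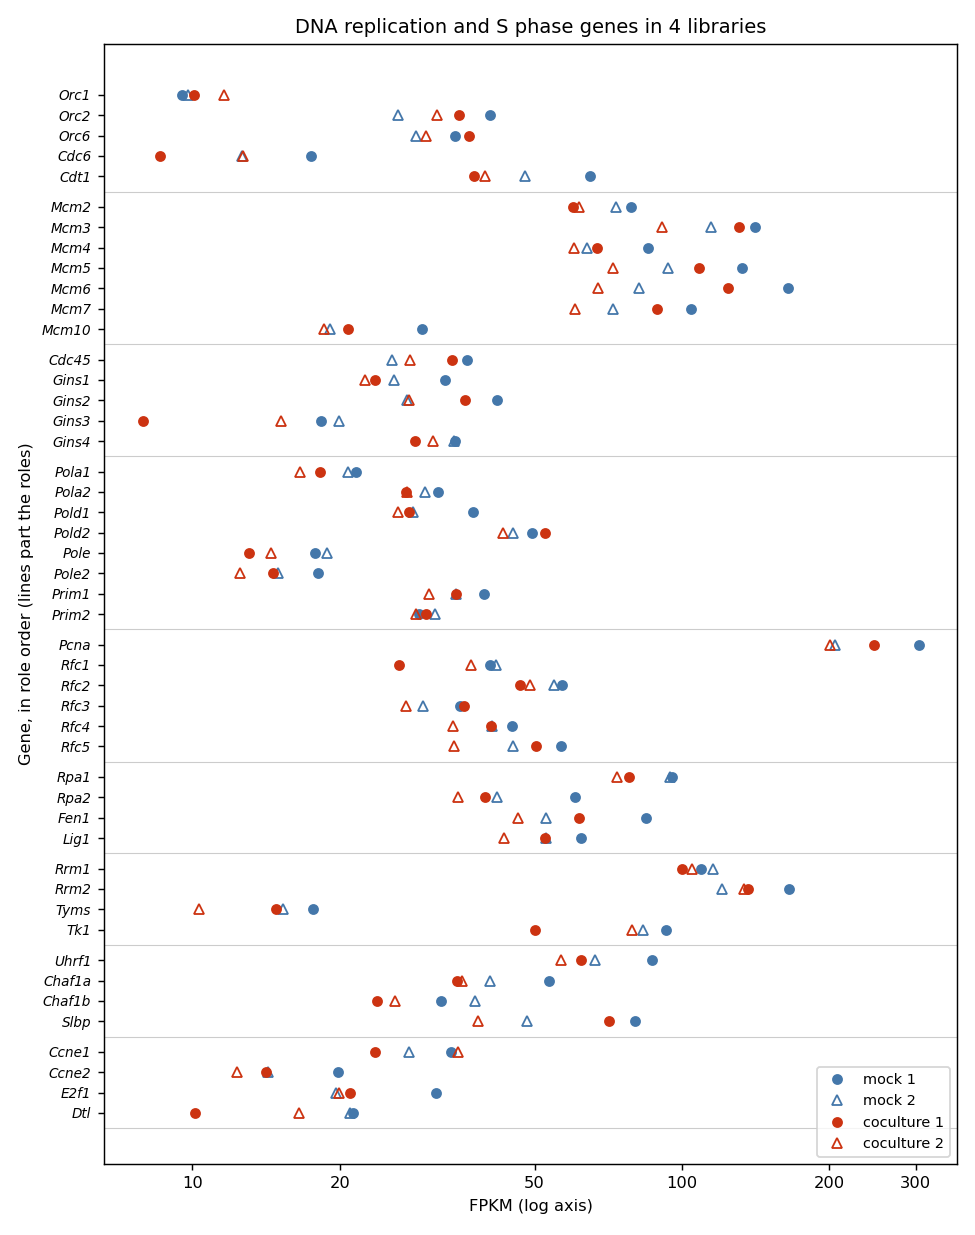
Each row is 1 of the 47 genes, the x axis is FPKM on a log axis, circles are pair 1, triangles pair 2, blue mock and red coculture. In 35 rows the red symbol lies left of the blue symbol of the same shape in both pairs.

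To show what these genes carry at their start sites, the RefSeq promoters (GRCm38.p6, 250 bases before to 50 after a start) were searched on both strands for the E2F consensus in its 4 forms TTTCCCGC, TTTCGCGC, TTTGCCGC and TTTGGCGC. Promoters were matched by symbol for 39 of the 47 genes, 46 promoters in all. A form was found in 15 of the 46 (32.6%), against 2.26% of the 32851 promoters of the table and 4.33% of the promoters of genes tested. CCAAT, the motif bound by NF-Y, was found in 60.9% of the promoters of the 47 genes and 37.4% of all promoters. The 160 bases before the start are shown for 6 genes, all among the 15 genes with a match. Of the 24 genes without a match, Tk1 and Chaf1b were also lower in both pairs, and Tk1 and Ccne1 also had wide gaps. The 6 shown are Mcm5 and Mcm6, lower in both pairs, Gins3 and Dtl, with the largest mean differences, Cdc6, with a wide gap between the pairs, and Orc1, higher in both pairs. Each is written 5′ to 3′ on the gene's strand, with E2F matches in capitals. In Mcm5 and Mcm6 a pair of matches on opposite strands overlap in 1 capital run.
Mcm5, chr8:75109349-75109508, plus strand: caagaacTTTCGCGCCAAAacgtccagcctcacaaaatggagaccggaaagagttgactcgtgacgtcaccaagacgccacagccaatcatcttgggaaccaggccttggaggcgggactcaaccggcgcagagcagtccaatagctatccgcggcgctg
Mcm6, chr1:128359706-128359865, minus strand: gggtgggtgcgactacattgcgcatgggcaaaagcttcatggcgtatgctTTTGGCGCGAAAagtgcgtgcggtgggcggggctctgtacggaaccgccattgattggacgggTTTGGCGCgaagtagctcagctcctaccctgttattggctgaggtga
Gins3, chr8:95633399-95633558, plus strand: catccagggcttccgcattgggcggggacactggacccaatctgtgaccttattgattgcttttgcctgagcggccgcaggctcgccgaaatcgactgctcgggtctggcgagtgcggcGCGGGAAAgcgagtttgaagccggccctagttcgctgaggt
Dtl, chr1:191575545-191575704, minus strand: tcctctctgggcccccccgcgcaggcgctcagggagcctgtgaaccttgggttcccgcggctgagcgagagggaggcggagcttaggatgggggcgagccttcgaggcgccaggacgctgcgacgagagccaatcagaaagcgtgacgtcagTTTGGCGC
Cdc6, chr11:98907991-98908150, plus strand: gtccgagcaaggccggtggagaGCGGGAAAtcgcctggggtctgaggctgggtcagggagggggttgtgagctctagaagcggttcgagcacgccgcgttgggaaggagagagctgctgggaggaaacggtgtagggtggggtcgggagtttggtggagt
Orc1, chr4:108579294-108579453, plus strand: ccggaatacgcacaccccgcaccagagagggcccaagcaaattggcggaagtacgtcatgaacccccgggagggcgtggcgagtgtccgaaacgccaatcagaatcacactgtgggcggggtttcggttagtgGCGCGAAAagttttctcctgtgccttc
The match ends at the last base before the start in Dtl. It begins 41 bases before the start in Gins3, 27 in Orc1 and 138 in Cdc6. Mcm6 has 3 matches, the first bases of which lie 110, 106 and 47 bases before the start. The 15 genes with a match had a median difference of -0.27 and 12 of them were lower in both pairs. The 24 without a match had a median of -0.26 with 17 lower in both. In pair 1 the medians were -0.29 with and -0.28 without a match, and in pair 2 they were -0.27 and -0.15. The 8 genes with no promoter matched by symbol had a median of -0.22, and 6 were lower in both. These groups were not compared by a test. A match to these letters is a description of the sequence, and no binding was measured.

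Of the 5 origin licensing genes, 1 was lower in both pairs, 2 were higher in both and 2 had opposite signs. Cdt1, which loads MCM rings and is destroyed in S phase, had 65.0 FPKM in mock 1 and 37.5 FPKM in coculture 1. Mock 2 had 47.9 FPKM and coculture 2 had 39.6 FPKM. Both coculture values lay below both mock values, and the mean difference was -0.52 ± 0.16 (moderated SE of limma over 2 pairs, limma adjusted p = 0.294). This ± borrows spread across genes and is not the spread of the pairs, which differed by -0.78 and -0.27. Cdc6, the partner of Cdt1 in loading, had one of the 4 widest gaps between the pairs. It had 17.5 FPKM in mock 1 and 8.61 FPKM in coculture 1, but at 12.6 and 12.7 FPKM in pair 2, so its values in pair 2 were nearly equal (mean -0.47 ± 0.26, limma adjusted p = 0.474). Its sign in pair 2 turned after rescaling to a common total.

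None of the 3 origin recognition complex genes among the 47 was lower in both pairs. Orc1, the largest subunit of that complex, stood in the mock libraries at 9.55 and 9.79 FPKM and in the cocultures at 10.1 and 11.6 FPKM. Both its coculture values lay above both mock values, at a mean of 0.15 ± 0.15 (limma adjusted p = 0.671). Orc6 was also higher in both pairs, by 0.09 and 0.06, and its groups overlapped. Orc2 went both ways, with 40.5 (mock) and 35.1 FPKM (coculture) in pair 1 against 26.3 and 31.7 FPKM in pair 2. The summed FPKM of the 5 licensing genes differed by -23.3% in pair 1 and by 0.257% in pair 2.

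All 7 MCM helicase genes were lower in both pairs. Under quantile normalization Mcm10, which helps to activate the helicase, was the exception. Mcm6 had 165 FPKM in mock 1 and 124 FPKM in coculture 1, and 81.6 and 67.4 FPKM in pair 2. Its mean difference was -0.34 ± 0.11 (limma adjusted p = 0.307), and the groups overlapped, because coculture 1 lay above mock 2, which stands in the other table. Mcm5 stood in pair 1 at 132 (mock) and 108 FPKM (coculture) and in pair 2 at 93.8 and 72.3 FPKM, with the same overlap (mean -0.33 ± 0.11, limma adjusted p = 0.308). Leaving out mock 1 or coculture 2 turned the sign of Mcm6, to 0.16 and 0.10, in comparisons across the tables. The difference of Mcm5 was then -0.08 and -0.04.

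The ring itself is built from Mcm2 to Mcm7. Together they summed to 707 FPKM in mock 1 and 579 FPKM in coculture 1, a difference of -18.1%, and in pair 2 the difference was -17.3%, from 499 to 413 FPKM. Levels within a library are per length, but the lengths used are not given and the tables differ in annotation. Ratios between subunits therefore describe the FPKM alone. The highest subunit stood 2.09 times above the lowest in mock 1 and 2.18 times in coculture 1, and 1.79 and 1.51 times in mock 2 and coculture 2. Mcm3 was the highest in every library but mock 1, where Mcm6 was. Mcm2 was the lowest in pair 1 and Mcm4 in pair 2. Mcm2 was the only MCM gene with both coculture libraries below both mock libraries, at 78.8 and 73.2 FPKM against 59.9 and 61.6 FPKM. Mcm10 lay apart from the ring at 18.6 to 29.5 FPKM.

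Helicase activation genes were lower in 5 of 5 cases in pair 1 and in 3 of 5 in pair 2. Gins3, a subunit of the GINS complex, had the largest mean difference of the 47. It had 18.4 FPKM in mock 1 and 7.92 FPKM in coculture 1, a difference of -56.9%. Mock 2 had 19.98 FPKM and coculture 2 had 15.2 FPKM, a difference of -24.2%. The groups did not overlap, and the mean was -0.75 ± 0.22 (limma adjusted p = 0.277). In pair 1 the FPKM of 3 of the 47 genes, Gins3, Dtl and Cdc6, was at least 2-fold lower, a pattern of 3.58% of all genes. Gins1 stood in pair 1 at 32.8 (mock) and 23.6 FPKM (coculture) and in pair 2 at 25.8 and 22.6 FPKM (mean -0.32 ± 0.13, limma adjusted p = 0.372).

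The other subunits of GINS did not share the size of the Gins3 difference. Gins4 differed by -0.27 and -0.14 in the pairs. Gins2 differed by -0.21 and 0.01, with a sign in pair 2 that turned after rescaling. Cdc45, which joins GINS on the MCM ring, stood in pair 1 at 36.4 (mock) and 34.0 FPKM (coculture) and in pair 2 at 25.6 and 27.8 FPKM. Its mean of 0.01 turned negative after rescaling to a common total.

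Polymerase and primase genes differed by about the same share in both pairs, -10.8% and -10.7% of their summed FPKM, and 6 of the 8 were lower in both. Pole, the catalytic subunit of the leading-strand polymerase epsilon, had 17.8 FPKM in mock 1 and 13.1 FPKM in coculture 1. The values of pair 2 were 18.9 and 14.5 FPKM, so the groups did not overlap (mean -0.39 ± 0.13, limma adjusted p = 0.306). Pola1, the catalytic subunit of polymerase alpha, stood in pair 1 at 21.6 (mock) and 18.3 FPKM (coculture) and in pair 2 at 20.8 and 16.6 FPKM (mean -0.27 ± 0.13, limma adjusted p = 0.402).

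Catalytic and accessory subunits were not alike in every polymerase. Pold1, the catalytic subunit of polymerase delta, differed by -0.42 and -0.10, while its partner Pold2 differed by 0.09 and -0.06. Pole2 differed by -0.28 and -0.24, and Pola2 by -0.21 and -0.12. The primase subunits Prim1 and Prim2, which lay the RNA primers, had means of -0.18 and -0.04. The mean of Pold2 turned negative after rescaling, and that of Prim2 turned positive after median centring and after quantile normalization.

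The clamp Pcna, which tethers polymerases to DNA, differed by -0.30 in pair 1 and -0.03 in pair 2. Its loader, replication factor C, gave 4 of 5 subunits lower in both pairs. Rfc1, the large subunit, had 40.5 FPKM in mock 1 and 26.4 FPKM in coculture 1, and 41.6 and 37.1 FPKM in pair 2. The groups did not overlap (mean -0.38 ± 0.15, limma adjusted p = 0.361). Rfc5 stood in pair 1 at 56.7 (mock) and 50.2 FPKM (coculture) and in pair 2 at 45.2 and 34.3 FPKM, and its groups overlapped (mean -0.28 ± 0.12, limma adjusted p = 0.384). Without coculture 2 it was -0.01 and without mock 1 -0.12. Rfc2 and Rfc4 had means of -0.22 and -0.20. Rfc3 differed by 0.03 and -0.11, and its mean of -0.04 turned positive after median centring.

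All 4 genes for single-strand binding and strand joining were lower in both pairs, with summed FPKM differences of -23.5% and -18.1%. Rpa2, a subunit of the RPA complex that coats single-stranded DNA, had 60.6 FPKM in mock 1 and 39.7 FPKM in coculture 1. The second pair had 41.9 and 34.9 FPKM (mean -0.43 ± 0.14, limma adjusted p = 0.298). Its partner Rpa1 stood in the mock libraries at 95.5 and 94.5 FPKM and in the cocultures at 77.9 and 73.8 FPKM. The Rpa1 values of a group lay closer to each other than to the other group (mean -0.32 ± 0.11, limma adjusted p = 0.313). Fen1, which trims Okazaki fragments, and Lig1, which seals them, had means of -0.32 and -0.26.

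Nucleotide supply genes differed by -21.9% of their summed FPKM in pair 1 and by -2.07% in pair 2. Tk1, the thymidine kinase of S phase, had 92.8 FPKM in mock 1 and 50.1 FPKM in coculture 1. Mock 2 and coculture 2 had 83.2 and 78.9 FPKM, and the groups did not overlap (mean -0.48 ± 0.22, limma adjusted p = 0.403). Tyms, which makes thymidylate, had the reverse order of the pairs. It stood in pair 1 at 17.6 (mock) and 14.8 FPKM (coculture) and in pair 2 at 15.3 and 10.3 FPKM (mean -0.38 ± 0.15, limma adjusted p = 0.348). Of the ribonucleotide reductase genes, Rrm1 was lower in both pairs with a mean of -0.14, and both coculture libraries lay below both mock libraries. Rrm2, the subunit whose level follows S phase, had opposite signs, with differences of -0.28 and 0.15. The mean of Rrm2 turned positive after median centring.

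Genes that copy chromatin with the DNA were lower in both pairs in 4 of 4 cases, with summed differences of -24.1% and -18.9%. Chaf1b, a subunit of the histone chaperone CAF-1, had the smallest p of the 47. It stood in the mock libraries at 32.1 and 37.7 FPKM and in the cocultures at 23.8 and 26.0 FPKM. The groups did not overlap, and the mean was -0.47 ± 0.12 (limma adjusted p = 0.238). Chaf1a, its partner, stood in pair 1 at 53.5 (mock) and 34.8 FPKM (coculture) and in pair 2 at 40.5 and 35.6 FPKM (mean -0.39 ± 0.15, limma adjusted p = 0.344). Uhrf1, which guides DNA methylation to new strands, differed by -0.47 and -0.23, and Slbp, the histone mRNA binding protein gene, by -0.18 and -0.32.

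S phase entry genes differed most between the pairs, with summed FPKM that differed by -35.2% in pair 1 and by 1.19% in pair 2. Dtl, which marks Cdt1 for destruction, had 21.3 FPKM in mock 1 and 10.1 FPKM in coculture 1. Mock 2 and coculture 2 had 21.0 and 16.5 FPKM, so the groups did not overlap (mean -0.66 ± 0.20, limma adjusted p = 0.288). Ccne2, an E cyclin that activates CDK2, stood in pair 1 at 19.8 (mock) and 14.2 FPKM (coculture) and in pair 2 at 14.3 and 12.3 FPKM (mean -0.33 ± 0.14, limma adjusted p = 0.384). Its relative Ccne1 went both ways, with 33.7 (mock) and 23.7 FPKM (coculture) in pair 1 against 27.7 and 34.8 FPKM in pair 2 (mean -0.09 ± 0.23, limma adjusted p = 0.877). E2f1, the activator of many S phase genes, stood in pair 1 at 31.5 (mock) and 21.0 FPKM (coculture) and in pair 2 at 19.6 and 19.97 FPKM. The sign of E2f1 in pair 2 turned after rescaling to a common total.

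**Figure D3:**
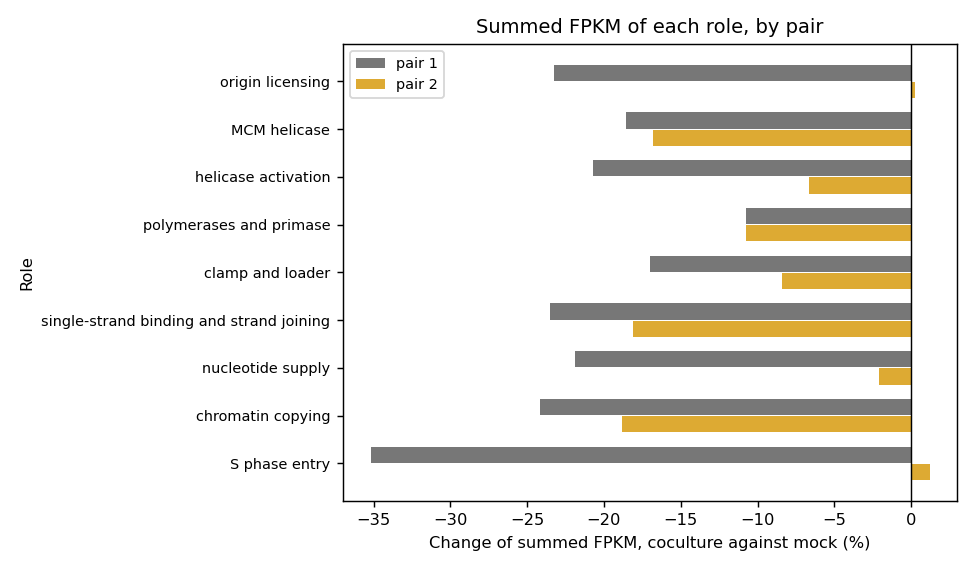
Bars give the difference of summed FPKM between coculture and mock in percent for each role, grey for pair 1 and yellow for pair 2. Pair 1 runs from -35.2% (S phase entry) to -10.8% (polymerases and primase), and pair 2 from -18.9% (chromatin copying) to 1.19% (S phase entry).

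The difference of summed FPKM was lower in pair 1 than in pair 2 for every role. For polymerase and primase genes the pairs were nearly level, at -10.8% and -10.7%. By gene, neither pair had more of the larger falls among clamp and loader or nucleotide supply genes. The same held for single-strand binding and strand joining and for chromatin copying. The FPKM were at least 25% lower in 18 of the 47 genes in pair 1, a bound reached by 20.1% of all genes tested and 12.9% of those in the same range of levels. In pair 2 it was 2 genes, Tyms and Chaf1b, beside 16% of all genes tested and 12.2% of those in the same range. The difference was lower in pair 1 than in pair 2 for 31 of the 47 genes and for 54.3% of all genes tested. Of the 10 genes with opposite signs, 7 were lower in pair 1 and 3 (Pold2, Prim2 and Rfc3) in pair 2. In 24 genes both coculture libraries lay below both mock libraries, a pattern of 21.5% of all genes tested, although levels in different tables were normalized separately. The 24 include 5 of the 8 polymerase and primase genes but only Cdt1 of the licensing genes.

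**Figure D4:**
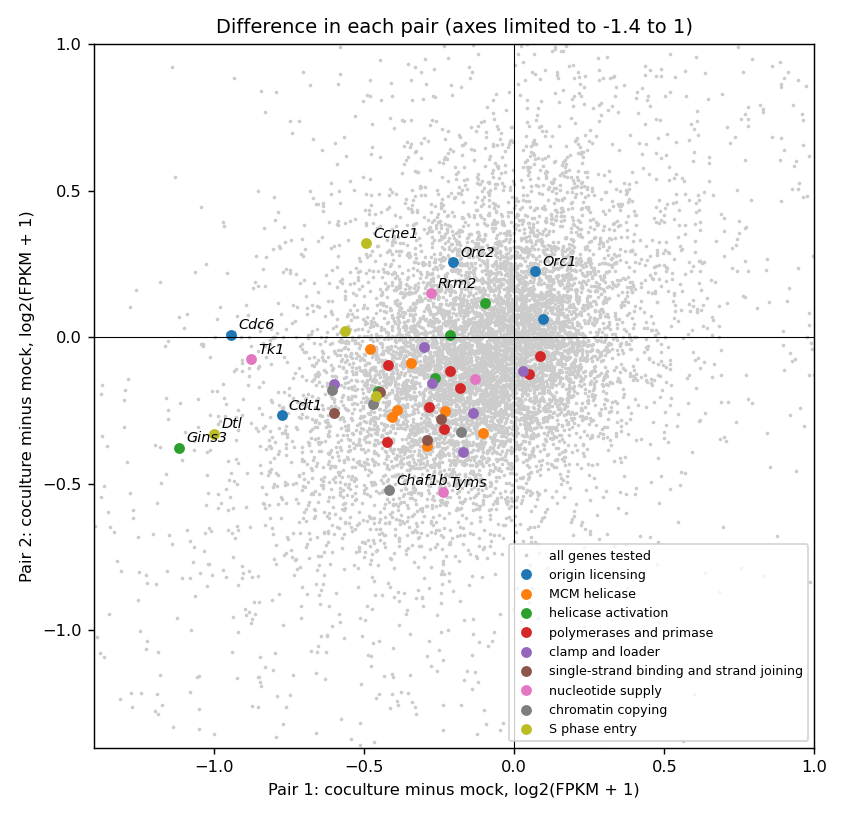
Each point is a gene, with the coculture minus mock difference on the log2(FPKM + 1) scale in pair 1 on the x axis and in pair 2 on the y axis. Colours mark the roles of the 47 genes and grey all genes tested. Most coloured points lie at lower left, with Gins3, Dtl, Cdc6 and Tk1 far to the left and Ccne1 and Orc2 at upper left.

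A second list of 46 replication genes outside the 47 was chosen by function, with earlier results of these data known. It gave similar counts in the same libraries, which is no independent check. None of the 46 was called by limma. An unadjusted limma p under 0.05 was found for 11 lower and 0 higher genes, beside 9.45% and 5.26% of all genes tested. Of the list, 33 were lower in both pairs, 3 higher and 10 opposite. Among all genes tested, 42.2% were lower in both and 21.5% higher. The median of the list was -0.27, or -0.23 in pair 1 and -0.21 in pair 2, beside -0.07 over all genes tested. Without mock 1, unblocked, the list had a median of -0.15. Wdhd1, which links polymerase alpha to the helicase, stood in pair 1 at 27.0 (mock) and 11.9 FPKM (coculture) and in pair 2 at 24.5 and 20.8 FPKM. Gmnn, the inhibitor of Cdt1, stood in pair 1 at 102 (mock) and 57.7 FPKM (coculture) and in pair 2 at 81.1 and 62.5 FPKM. Dnmt1, the methyltransferase that Uhrf1 recruits, stood in the mock libraries at 89.5 and 94.5 FPKM and in the cocultures at 59.4 and 64.7 FPKM, with differences of -0.58 and -0.54 (limma adjusted p = 0.182). Pold4, a small subunit of polymerase delta, went the other way, from 7.85 to 8.50 FPKM and from 4.79 to 9.89 FPKM.

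Among 23 regulators of the step from G1 to S, 22 were tested and none was called, while Ccnd2 stayed under the filter. Of the 22, 19 were lower in both pairs and 3 (Cdk6, Cdkn1a and Myc) higher in both, beside 42.2% and 21.5% of all genes tested. The median of the 22 was -0.33, beside -0.07 over all genes tested. The unadjusted limma p was under 0.05 for 8 lower and 3 higher genes, beside 9.45% and 5.26% of all genes tested. The repressor E2f8 stood in the mock libraries at 31.3 and 34.1 FPKM and in the cocultures at 18.0 and 20.1 FPKM (mean -0.75 ± 0.12, limma adjusted p = 0.143). The activator E2f2 stood in pair 1 at 18.3 (mock) and 6.71 FPKM (coculture) and in pair 2 at 19.1 and 10.8 FPKM (mean -1.04 ± 0.19, limma adjusted p = 0.168). Cdkn2c, an inhibitor of CDK4 and CDK6, stood in the mock libraries at 24.8 and 30.2 FPKM and in the cocultures at 15.5 and 14.4 FPKM. Myc, which promotes growth and S phase entry, stood in pair 1 at 5.16 (mock) and 43.3 FPKM (coculture) and in pair 2 at 1.03 and 36.9 FPKM (mean 3.53 ± 0.35, limma adjusted p = 0.0707).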

How the data were processed

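Messenger RNA of 2 mock and 2 coculture libraries was used. The authors deposited FPKM in 2 tables, 1 per replicate number. The tools, per the submitters' processing notes, were featureCounts, Subread and Trim Galore, with hg38, a human build, named for symbols that are those of mouse genes. Not given in the sources used here are versions, annotation and the treatment of reads shared with pseudogene copies. By their row names the tables differ in annotation (23427 and 25239 rows). Unnamed rows (23) and rows with repeated names (287), at most 1.07% of a library's FPKM, were left out.

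FPKM were used as deposited, with a pseudocount of 1 on the log2 scale and a filter of at least 1 FPKM in at least 2 libraries. Limma 3.58.1 (R 4.3.3, trended prior, two-sided, Benjamini-Hochberg over all 10202 genes) had the pair as a block, since only values of 1 table are compared, leaving 1 residual degree of freedom beside 3.43 prior degrees. Depth was estimated from GENCODE M21 exon lengths and the value of 1 read, so it is approximate. The members and lists were chosen with earlier results of these data known. Values in every library are given for the 2 genes per role whose mean difference was largest among those with 1 sign in both pairs, the 4 with the widest gap between pairs, and 4 genes of each further list. Others named in full (Mcm2, Pcna, Orc2, Cdc45 and E2f1) were chosen after their values were seen.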

Additional observations from a re-analysis of the deposited data

How the results depend on the processing

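None of the 47 replication genes was called under any of the 13 alternatives, with limma adjusted p of 0.176 or above in the 260 refits of the 20 genes given in full by rule. Over the alternatives in scaling alone, the number of the 47 lower in both pairs lay between 34 and 40. The alternatives in pseudocount and filter could not move it from 35. A pseudocount turns no sign within a pair, and these filters drop none of the 47. The count of all genes called, 13, was 22 with a pseudocount of 0.1, 26 with at least 5 FPKM, 26 after rescaling to a common total, 46 after quantile normalization, and 103 after median centring (85 higher and 18 lower). It was 0 with no filter (1620 at an unadjusted p under 0.05), 1 without a trended prior, 1 with no replicate block and 0 without any single library (176 to 523 at an unadjusted p under 0.05). The median of the 47 genes ran from -0.389 to -0.12 over the fits without 1 library. It was -0.261 with or without the replicate block, which was fixed in advance. With both pairs complete, the block cannot change a mean difference, so this value is no check. The numbers pair libraries through their shared table, and the correlation of deviations within a pair was 0.76, the same in both pairs by construction. Each pair has its own table, so this value cannot show whether the cultures were paired. The median of the other replication genes was -0.326 after rescaling, -0.208 after median centring and -0.222 after quantile normalization, and -0.313 to -0.146 without 1 library. Over these fits Mcm6 ran from -0.844 to 0.164, with its sign reversed without mock 1 (0.164) and without coculture 2 (0.0956). Ccne1 ran from -0.356 to 0.182, reversed without mock 1 (0.0512) and without coculture 1 (0.182). Of the 20 genes, the difference was smaller by over 1.5 times or of the other sign in 10 without mock 1, 0 without mock 2, 6 without coculture 1 and 5 without coculture 2, and larger by over 1.5 times in 0, 7, 5 and 5. Fits without 1 library cannot hold the block, compare separate tables and assume that the lone library varies like the other group. The cause of these shifts was not tested.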
